A study of Homo sapiens and Mus musculus with 8 samples.

Results

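A clone of B16N mouse melanoma cells that overexpressed Orai1 was compared, gene by gene, with B16N cells exposed to UV for 5 weeks. The members were chosen, with earlier results of these data known, by a rule that did not use the size or direction of a difference. A gene had to be present in the deposited comparisons of both samples with the untreated line. It also had to share its values with no other symbol in either. This left 10279 genes of the 15571 symbols in either comparison, since 750 symbols were in the clone's comparison alone, 527 in that of 5 weeks alone, and 4015 of the 14294 in both shared values. RNA-seq had been done on 8 samples of 3 melanoma lines, 4 of them B16N, with 1 sample per group. The control was wild-type B16N with no treatment, labelled day 0, and the UV samples were wild-type B16N exposed to UV and labelled week 2 and week 5. The other sample, also labelled day 0, was Orai1 overexpressing: cells had received Orai1-WT-CFP, were kept under G418, sorted by fluorescence and grown up as individual clones. It is 1 clone, and transfection, selection, sorting and clonal growth cannot be told apart from Orai1, nor weeks in culture from UV. The cells shared 1 growth protocol in DMEM with fetal bovine serum.

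Orai1 forms the pore of a store-operated Ca2+ channel, which STIM proteins open when the Ca2+ store of the endoplasmic reticulum (ER) is drained. Ca2+ entering this way activates calcineurin, which sends NFAT transcription factors to the nucleus, while inositol trisphosphate receptors release Ca2+ from the store. NRF2 is a transcription factor that drives antioxidant genes under oxidative stress, and in the integrated stress response ATF4 drives genes for amino acid uptake, amino acid synthesis and tRNA charging. In melanocytes UV is also known for tanning, the induction of pigment genes.

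Each value below is a log2 difference, clone minus 5 weeks of UV, made from both samples' changes against the same control, so the control's level cancels. Changes quoted from the authors' deposited tables carry a turned sign, sample over control. The standard error (SE) combines those implied by the authors' deposited test statistics. Genes were called by a normal test of the difference with Benjamini-Hochberg adjustment over the 10279 genes at an adjusted p of 0.05, and a difference given with its SE alone passed this test unless said otherwise. With 1 sample per group the test compares these libraries, not the conditions, and no difference had a replicate check. The tables hold comparisons only, so levels and depth are unknown, and the precision of a gene is known only from its SE, with a median of 0.38 for the difference. Orai1 was not analysed here, so the label of the clone was not checked against it. Of 10 melanoma identity genes, 8 were measured. Markers of other cells were sparse: 1 of 22 for immune cells (Lyz2), 1 of 16 for fibroblasts and endothelium (Pdgfrb) and 1 of 17 for keratinocytes (Sfn). The myeloid lysozyme gene Lyz2 was above the control in the authors' deposited tables by 2.78 in the clone and 3.47 at 5 weeks, and the part of other cells in the results was not tested.

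More genes were called lower than higher in the clone. In the clone 482 genes (4.69%) were lower and 153 (1.49%) were higher than at 5 weeks of UV, so that 75.9% of calls were lower. With a minimum of 2-fold, 220 (2.14%) were lower and 57 (0.555%) higher. Over all genes the median difference was 0.02. Against the untreated line itself, the clone had 1553 of 15041 genes higher (10.3%) and 1752 lower (11.6%), and the 5 week sample had 455 of 14821 higher (3.07%) and 253 lower (1.71%). Among the 482 lower genes, 404 fell in the clone and 97 rose at 5 weeks, and among the 153 higher genes 124 rose in the clone and 18 fell at 5 weeks. Since each difference is built from those changes, these counts only say in which sample the genes moved.

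**Figure D1:**
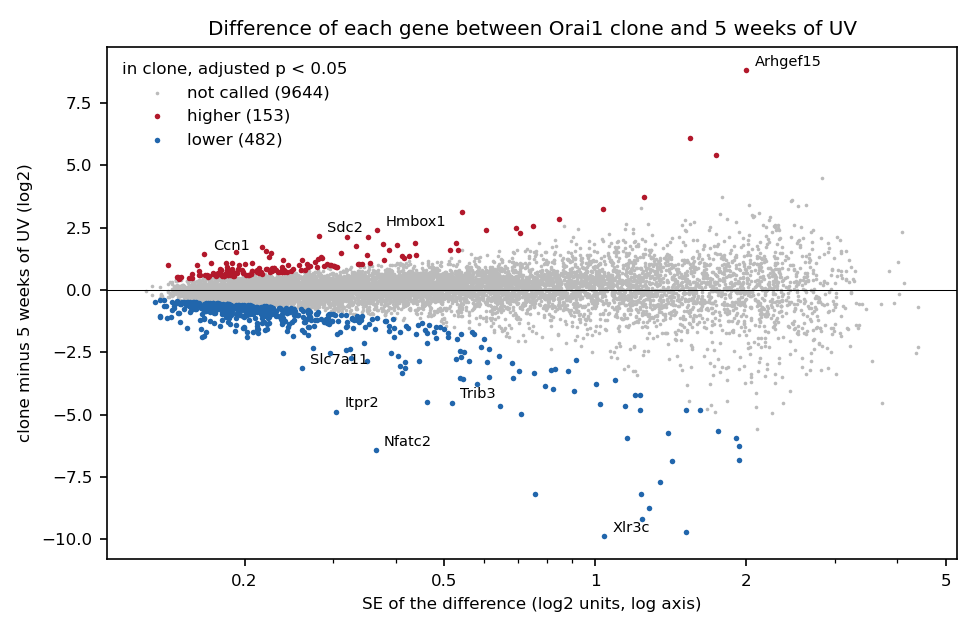
Difference of each of 10279 genes (y axis, clone minus 5 weeks of UV, log2) against the SE of that difference (x axis, log2 units, log axis), 1 point per gene. Red points are the 153 genes higher and blue points the 482 genes lower in the clone, and Nfatc2 and Itpr2 lie lowest among genes of SE at most 0.5.

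Genes of Ca2+ signalling held the most negative differences of all genes measured with an SE of at most 0.5, although few members of these lists moved. Nfatc2, an NFAT transcription factor that calcineurin activates, had a change against control of -6.66 (SE 0.33) in the clone, -0.25 (SE 0.16) after 5 weeks and -0.09 (SE 0.10) after 2 weeks of UV in the authors' deposited tables. Only the clone was low. The difference taken from the authors' deposited tables was -6.41 (SE 0.37, adjusted p = 5.78e-65). Nfatc2 was the 1 gene called among 18 of the calcineurin, NFAT and calmodulin kinase list (5.56% lower, near the 4.69% of all genes). Its relatives Nfatc1 and Nfatc3 had differences of -0.26 (95% interval -1.50 to 0.97) and 0.49 (-0.56 to 1.54), and the calcineurin catalytic subunit Ppp3ca had -0.28 (-1.48 to 0.91). Rcan1, a calcineurin inhibitor and well-known NFAT target, had -0.43 (95% interval -0.77 to -0.08) and was not called.

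Itpr2, an inositol trisphosphate receptor, moved in opposite directions in these samples. Its change was -3.08 (SE 0.23) in the clone, 1.80 (SE 0.20) after 5 weeks and -0.05 (SE 0.15) after 2 weeks of UV in the authors' deposited tables, so it fell in the clone and rose at 5 weeks. By the authors' deposited statistics the difference was -4.88 (SE 0.30, adjusted p = 6.44e-54). The other receptors Itpr1 and Itpr3 were not called, with 95% intervals of -0.76 to 2.23 and -2.86 to 2.44. Of 15 genes for Ca2+ release, pumps and mitochondrial uptake, 1 was lower (6.67% beside 4.69% of all genes) and 2 were higher (13.3% beside 1.49%) in the clone. The list median was -0.19. The higher ones were Slc24a5, the cation exchanger of the melanosome, with 0.67 (SE 0.19, adjusted p = 0.0124), and Vdac2, a channel of the outer mitochondrial membrane, with 0.63 (SE 0.21, adjusted p = 0.0367), by the authors' deposited statistics.

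None of the 9 measured genes of store-operated Ca2+ entry was called, and 1 had an unadjusted p under 0.05. That gene was Saraf, which switches the channel off, with a difference of -0.58 (95% interval -1.04 to -0.11, adjusted p = 0.161 by the authors' deposited statistics). It passed at an adjusted p of 0.0162 when the control's share of the variance was taken out. Orai2, a paralog of Orai1, rose in both samples, by 0.56 (SE 0.13) in the clone and 0.49 (SE 0.15) at 5 weeks in the authors' deposited tables, and its difference of 0.07 had an interval of -0.32 to 0.47. Stim2, a Ca2+ sensor of the ER, had 0.34 (-0.69 to 1.37), and Stimate, which helps STIM proteins move, had 0.86 (-0.25 to 1.96). Ubqln1 had -0.27 (-0.58 to 0.04), Homer1 0.31 (-0.62 to 1.25), Slc35g1 0.42 (-0.65 to 1.49) and the channel subunit Trpc1 -0.76 (-3.13 to 1.60). Cracr2a was not called at an SE above 1. At 7 of the 9 genes the interval reached a 2-fold difference.

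Ca2+-binding S100 proteins gave further large differences. S100b, a melanoma marker, had a change of -1.68 (SE 0.16) in the clone, 0.86 (SE 0.17) after 5 weeks and 0.77 (SE 0.12) after 2 weeks in the authors' deposited tables. It thus fell in the clone and rose in both UV samples, and the difference was -2.54 (SE 0.24, adjusted p = 2.25e-23 by the authors' deposited statistics). S100a4, linked to cell motility, rose at 5 weeks by 2.50 (SE 0.43) and had 0.23 (SE 0.41) in the clone in the authors' deposited tables, a difference of -2.27 (SE 0.59, adjusted p = 0.00412). S100a10, a partner of annexin A2, had -0.73 (SE 0.21). Of 13 members of the S100 and EF-hand list 3 were lower (23.1% beside 4.69% of all genes) and none higher. The list median was 0.07, and -0.28 over members with an SE of at most 0.5. Prkg2, a cGMP-dependent kinase, fell in both samples, by -4.45 (SE 0.16) in the clone and -1.55 (SE 0.39) at 5 weeks in the authors' deposited tables, with a difference of -2.90 (SE 0.42, adjusted p = 7.21e-10).

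**Figure D2:**
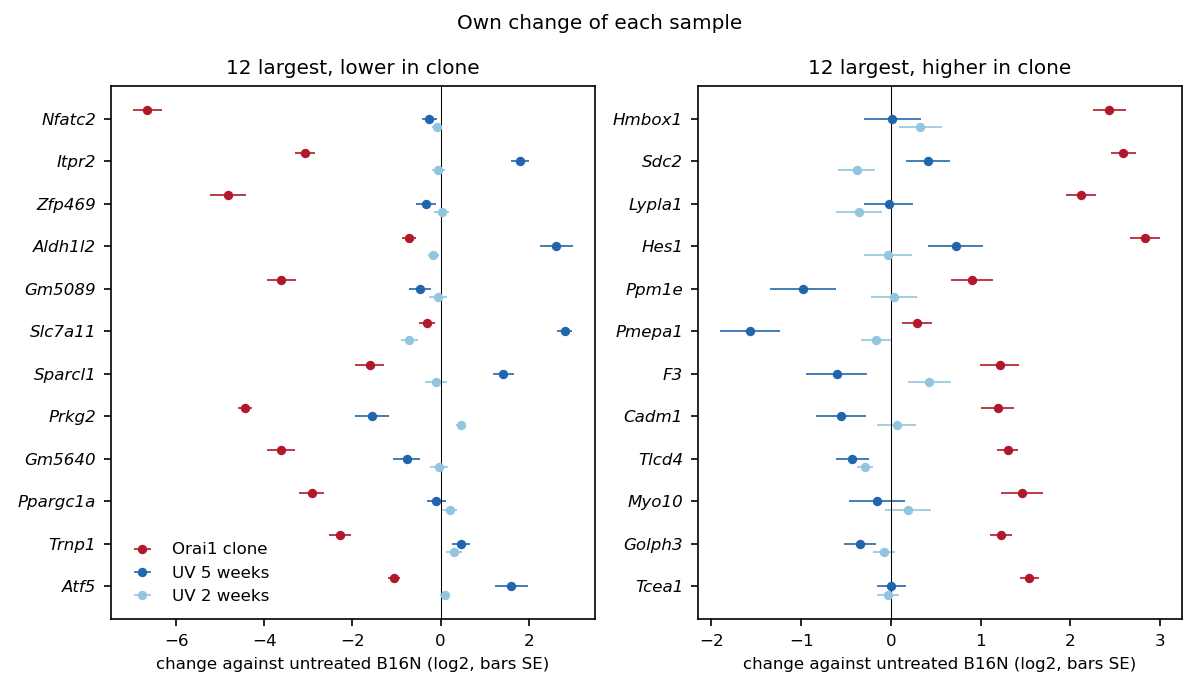
Changes against untreated B16N (x axis, log2, bars SE) of the 12 largest negative (left) and 12 largest positive differences (right) among called genes with an SE of at most 0.5, in the Orai1 clone (red) and after 5 (blue) and 2 weeks of UV (light blue). Nfatc2 was low in the clone alone at -6.66, while Slc7a11 was high at 5 weeks alone at 2.82.

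Genes of the integrated stress response made up the list with the largest share of calls among lists with at least 5 measured members. Of 23 measured members, 17 were lower in the clone than at 5 weeks and none was higher, which is 73.9% beside 4.69% of all genes, and all 23 differences were below 0. The list's median difference was -1.08, with a median change of -0.31 in the clone and 0.77 at 5 weeks. Against the control, 1481 of all 10279 genes fell and 1239 rose in the clone, while 363 rose and 208 fell at 5 weeks. In this list 11 members fell and 1 rose in the clone, while 12 rose and none fell at 5 weeks. This list was drawn up with earlier results of these data known, so its direction is no independent evidence.

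Among the regulators of this response Atf4, Atf5 and Trib3 fell in the clone and rose at 5 weeks. Atf4, its central transcription factor, fell by -0.32 in the clone and rose by 0.78 at 5 weeks in the authors' deposited tables, with a difference of -1.10 (SE 0.18, adjusted p = 2.23e-07). Atf5, a related factor, had -1.05 (SE 0.13) in the clone, 1.61 (SE 0.38) after 5 weeks and 0.10 (SE 0.11) after 2 weeks in the authors' deposited tables. The difference of Atf5 was -2.66 (SE 0.40). Trib3, a pseudokinase that ATF4 induces and that restrains it, had -2.11 (SE 0.17) in the clone, 2.41 (SE 0.49) after 5 weeks and -0.66 (SE 0.14) after 2 weeks in the authors' deposited tables. It rose at 5 weeks only, having fallen at 2 weeks and in the clone, and its difference was -4.52 (SE 0.52, adjusted p = 1.85e-15 by the authors' deposited statistics). Eif4ebp1, a brake on cap-dependent translation, had a difference of -1.57 (SE 0.21). Ppp1r15a, which ends the response by restoring translation, was above the control in both samples, at 0.94 and 1.51 in the authors' deposited tables, and was not called between them (-0.57, 95% interval -1.38 to 0.25). Ddit4, a brake on mTOR, had -1.48 (SE 0.27), with a rise at 5 weeks.

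Amino acid supply and tRNA charging followed the same direction. Slc7a11, the cystine importer, had -0.31 (SE 0.19) in the clone, 2.82 (SE 0.18) after 5 weeks and -0.71 (SE 0.19) after 2 weeks in the authors' deposited tables. It rose at 5 weeks alone, and the difference from the authors' deposited tables was -3.12 (SE 0.26, adjusted p = 1.16e-29). Slc7a5, the large neutral amino acid transporter, fell by -0.67 in the clone and had 0.31 at 5 weeks in the authors' deposited tables, a difference of -0.98 (SE 0.18, adjusted p = 6.06e-06). Its heavy chain partner Slc3a2 was also lower in the clone, as was the glutamine transporter Slc38a2. The integrated stress response list holds 8 measured aminoacyl-tRNA synthetase genes, which load tRNAs with amino acids. Of these, 6 were lower in the clone, beside 4.69% of all genes (Aars, Sars, Cars, Yars, Gars and Wars). They are part of the 17 lower genes of that list given above. The 8 differences ran from -1.16 to -0.18, with a median of -0.83, and Mars1 and Eprs were not called. Over the other 15 members of the list the median was -1.20, with 11 lower, again beside 4.69% of all genes. Bcat1, which starts the breakdown of branched-chain amino acids, fell by -1.15 in the clone and rose by 1.23 at 5 weeks in the authors' deposited tables (difference -2.38, SE 0.32, adjusted p = 4.98e-11).

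Serine and one-carbon metabolism supplies units for nucleotides and glutathione. Here 6 of 14 measured genes were lower and none higher (42.9% beside 4.69%), with a median of -0.59. Aldh1l2, the mitochondrial formyltetrahydrofolate dehydrogenase, had -0.71 (SE 0.16) in the clone, 2.63 (SE 0.38) after 5 weeks and -0.16 (SE 0.13) after 2 weeks in the authors' deposited tables. Its difference was -3.34 (SE 0.41, adjusted p = 2.55e-13 by the authors' deposited statistics). Mthfd2, also of the mitochondrial folate pathway, had -0.66 in the clone, 0.55 after 5 weeks and -0.61 after 2 weeks in the authors' deposited tables, falling in the clone and at 2 weeks and rising at 5 weeks. The difference of Mthfd2 was -1.20 (SE 0.16). Psat1, an enzyme of serine synthesis, had a difference of -1.14 (SE 0.14), and Aldh18a1, which starts proline synthesis, had -1.52 (SE 0.20). Shmt2 and Mat2a were lower too. The cytosolic folate enzyme gene Mthfd1 had 0.15 (95% interval -0.45 to 0.74) and Ahcy, of the methionine cycle, -0.05 (-0.36 to 0.26), and neither was called.

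**Figure D3:**
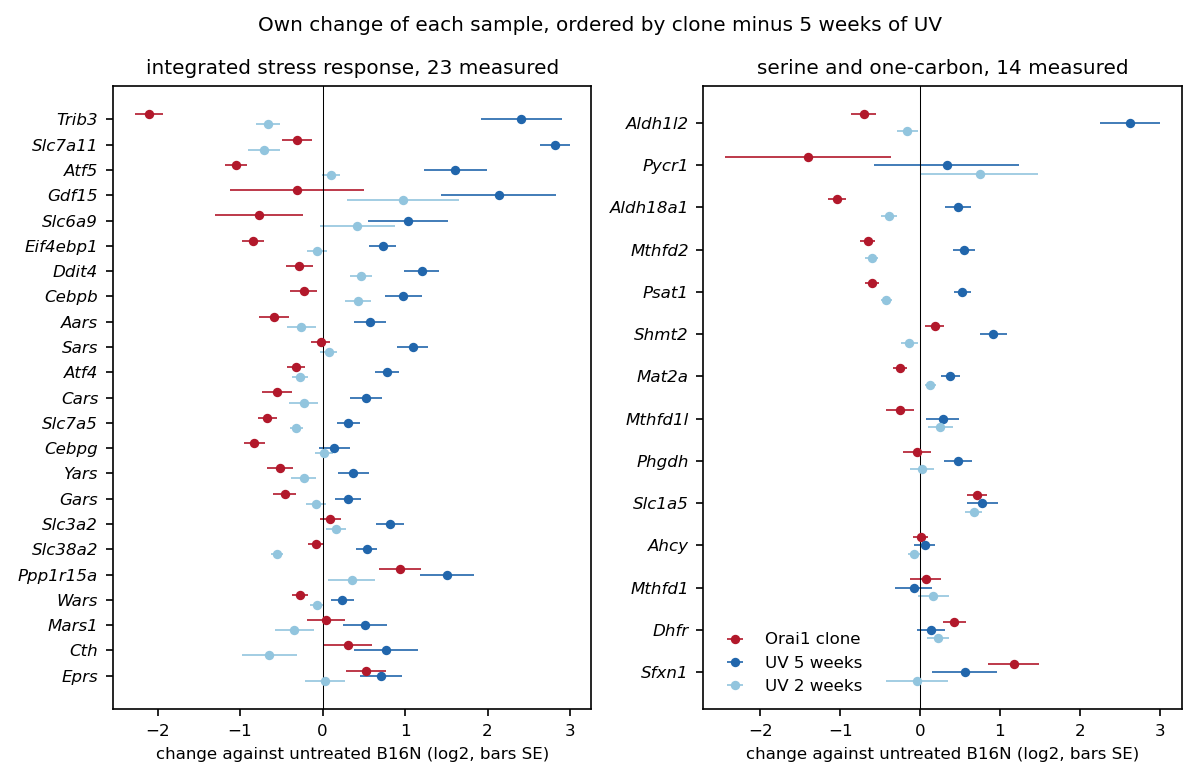
Changes against untreated B16N (x axis, log2, bars SE) of every measured member of the integrated stress response (left, 23 genes) and of serine and one-carbon metabolism (right, 14 genes), ordered from the most negative to the most positive difference between clone and 5 weeks. Clone points (red) lie left of the 5 week points (dark blue) at all 23 genes on the left, while 2 week points are light blue.

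Genes of the unfolded protein response, which answers misfolding in the ER, were also called. Of 25 members, 6 were lower and none higher (24% beside 4.69%), with a median of -0.28. Herpud1, an ER degradation factor, fell by -1.12 (SE 0.18) in the clone, rose by 1.19 (SE 0.21) at 5 weeks and had -0.04 (SE 0.16) at 2 weeks in the authors' deposited tables. The difference was -2.31 (SE 0.27). The chaperones Pdia4 (-0.74, SE 0.14) and Hsp90b1 (-0.66, SE 0.17) were also lower, with adjusted p of 2.8e-05 and 0.00251, and so were Hspa5 (BiP), Manf and Dnajc3. Xbp1, a transcription factor of this response, was above the control in both samples, at 1.39 and 0.91 in the authors' deposited tables, and was not called between them (0.48, 95% interval -0.04 to 0.998).

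Among hypoxia-responsive genes 4 of 17 were lower and none higher (23.5% beside 4.69%), with a median of -0.53. Ero1a, an ER oxidase, fell by -0.91 (SE 0.10) in the clone and rose by 0.99 (SE 0.13) at 5 weeks and 0.56 (SE 0.09) at 2 weeks in the authors' deposited tables, with a difference of -1.89 (SE 0.16, adjusted p = 4.98e-27). Bnip3, a mitophagy receptor, had -1.33 (SE 0.29), and the oxygen sensor Egln1 had -0.74 (SE 0.18). Ddit4, given above, was the other lower gene. In glycolysis 3 of 18 were lower, namely Pfkp, Pgk1 and Aldoa (16.7% beside 4.69%). Pfkp, a phosphofructokinase, had -1.50 (SE 0.27, adjusted p = 1.91e-06), and the call of Aldoa ended (adjusted p = 0.076 by the authors' deposited statistics) when the median of genes of low SE was set to 0.

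Some antioxidant genes that NRF2 controls were lower in the clone than at 5 weeks of UV. Of 24 measured, 7 were lower in the clone (29.2% beside 4.69%) and 1 was higher (4.17% beside 1.49%), with a median of -0.39. Against the control 13 rose at 5 weeks and 11 rose in the clone, beside 363 and 1239 of all 10279 genes. The most negative difference of this list was that of Slc7a11, which the integrated stress response list also counts. Hmox1, which breaks down haem, had 0.59 (SE 0.20) in the clone, 2.56 (SE 0.49) after 5 weeks and 0.05 (SE 0.21) after 2 weeks in the authors' deposited tables. It rose in both the clone and the 5 week sample, with a difference of -1.97 (SE 0.53, adjusted p = 0.00608 by the authors' deposited statistics). Sqstm1, the autophagy adaptor that frees NRF2 from its inhibitor, had 0.31 (SE 0.08), 1.71 (SE 0.17) and -0.08 (SE 0.07) in the clone, at 5 and at 2 weeks in the authors' deposited tables. Its difference was -1.40 (SE 0.19). The ferritin heavy chain Fth1, which stores iron, had -1.08 (SE 0.14), catalase (Cat) -1.01 (SE 0.19), and Gclc, the catalytic subunit for glutathione synthesis, -0.97 (SE 0.30). Blvrb was called at -1.34 (SE 0.45, adjusted p = 0.0482) and lost its call with the median of genes of low SE set to 0 (adjusted p = 0.0672 by the authors' deposited statistics). Tkt, a pentose phosphate enzyme, was the exception, higher in the clone at 0.52 (SE 0.17, adjusted p = 0.0378 by the authors' deposited statistics). The gene for NRF2 itself, Nfe2l2, fell in the clone by -0.64 in the authors' deposited table and had a difference of -0.41 (95% interval -0.71 to -0.11, adjusted p = 0.0917).

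Metallothioneins, which bind metals, and glutathione transferases, which conjugate glutathione to toxic compounds, were read as 1 list. Of 15 measured, 4 were lower in the clone and none higher (26.7% beside 4.69%). Their median was -0.72, with 3 of the 15 above 0. Against the control 10 rose at 5 weeks and 5 in the clone, beside 363 and 1239 of all 10279 genes. Mt2 had 0.54 (SE 0.17) in the clone, 2.40 (SE 0.18) after 5 weeks and -0.03 (SE 0.27) after 2 weeks in the authors' deposited tables. Mt1 had -0.53 (SE 0.10), 0.98 (SE 0.12) and -0.15 (SE 0.08) in the same order in the authors' deposited tables. Both were lower in the clone, at -1.86 (SE 0.25) and -1.51 (SE 0.15), but only Mt1 had fallen below the control there. Mgst1 (-1.88, SE 0.51) and Gstm1 (-1.38, SE 0.29) were lower as well, and values of Gstm genes are uncertain because the family has near-identical copies.

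Pigment genes split between the samples. Of 20 genes for pigment synthesis and melanosomes, 4 were lower (20% beside 4.69%) and 2 higher (10% beside 1.49%) in the clone. The list median was -0.18. Against the control 10 rose at 5 weeks and 8 in the clone, beside 363 and 1239 of all 10279 genes. Tyr, the rate-limiting enzyme of melanin synthesis, had 0.12 (SE 0.14) in the clone, 1.32 (SE 0.15) after 5 weeks and 0.95 (SE 0.10) after 2 weeks in the authors' deposited tables. The difference of Tyr taken from the authors' deposited tables was -1.20 (SE 0.20, adjusted p = 4.15e-07). Dct, a later enzyme of the pathway, fell in the clone by -0.61 (SE 0.09) and rose in the UV samples, by 0.85 (SE 0.15) at 5 weeks and 0.72 (SE 0.08) at 2 weeks in the authors' deposited tables, giving -1.46 (SE 0.18, adjusted p = 1.37e-13). Rab32, which carries cargo to melanosomes, fell in the clone alone, by -1.48 (SE 0.12) in the authors' deposited table, and its difference was -1.33 (SE 0.22, adjusted p = 1.08e-07). Slc45a2, a melanosomal transporter, rose further in the clone, at 1.64 (SE 0.11) against 0.71 (SE 0.15) at 5 weeks and 0.84 (SE 0.11) at 2 weeks in the authors' deposited tables, a difference of 0.93 (SE 0.18, adjusted p = 3.45e-05). Slc24a5 was higher as well, and the amino acid transporter gene Slc7a5 was the other lower gene. By the order of human namesakes Dct lay among 25 genes with a median change of -1.18 in the clone and Slc45a2 among 25 with 0.74, and the part of these neighbourhoods in both differences was not tested. Mlana, a melanosomal antigen, rose in both samples, with a difference of -0.03 (95% interval -0.36 to 0.30), as did the fibril protein gene Pmel with 0.17 (-0.19 to 0.53). Mitf, the master regulator of the lineage, had -0.21 with a wide interval (-1.66 to 1.24). Pax3, an upstream factor, was lower at -0.67 (SE 0.16, adjusted p = 0.00103), and Ets1 was higher at 0.57 (SE 0.18, adjusted p = 0.0309), by the authors' deposited statistics. Pax3 and Ets1 were the only calls among 13 melanocyte lineage regulators (7.69% lower beside 4.69%, 7.69% higher beside 1.49%), with a list median of -0.41.

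Lysosomal and autophagy genes were lower at 6 (20.7% beside 4.69%) and higher at 2 (6.9% beside 1.49%) of 29, with a median of -0.32. Sqstm1, which the NRF2 list also counts, was among the lower ones. Lamp2, a lysosomal membrane protein, fell by -0.60 (SE 0.19) in the clone and rose by 1.10 (SE 0.19) at 5 weeks in the authors' deposited tables, a difference of -1.70 (SE 0.26, adjusted p = 1.58e-08). The human namesake of Lamp2 is on the X chromosome, whose genes had a median change of -0.57 in the clone. Ctsd, an aspartic protease, had -0.75 (SE 0.15), and the ceramidase gene Asah1 had -0.78 (SE 0.17). Atp6v1h, a proton pump subunit, was higher in the clone at 1.33 (SE 0.28), as was the protease Ctsz. In the mitochondrial genome 4 of 13 protein-coding genes were lower in the clone (30.8% beside 4.69%) and none higher. These were mt-Nd6 at -1.20 (SE 0.18), mt-Nd5 at -1.03 (SE 0.20), mt-Nd2 at -0.90 (SE 0.19) and mt-Co1 at -0.55 (SE 0.18). The call of mt-Co1 ended (adjusted p = 0.0775 by the authors' deposited statistics) with the median of genes of low SE set to 0, and the list median of -0.08 became -0.46 over members with an SE of at most 0.5. Since mt-Nd5 and mt-Nd6 lie on opposite strands side by side and the use of strand in counting is not given in the sources used here, their reads may not be separable. Of 31 nuclear respiratory genes 1 was lower (3.23% beside 4.69%). This was Cox8a at -0.55 (SE 0.17, adjusted p = 0.0238, or 0.0558 with the median of genes of low SE set to 0, by the authors' deposited statistics). Ppargc1a, a coactivator of mitochondrial genes, fell in the clone by -2.93 (SE 0.28) and had -0.09 (SE 0.21) at 5 weeks in the authors' deposited tables, a difference of -2.84 (SE 0.35, adjusted p = 2.57e-13).

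In lipid metabolism the following genes were called. Scd1, the stearoyl-CoA desaturase, had -1.33 (SE 0.17, adjusted p = 6.85e-12), with a rise of 1.06 at 5 weeks and a fall of -0.27 in the clone in the authors' deposited tables, and was the 1 gene of 17 called for fatty acid synthesis and storage (5.88% lower beside 4.69%). Of 23 cholesterol synthesis genes 2 were lower (8.7% beside 4.69%): Msmo1 at -0.89 (SE 0.18, adjusted p = 5.7e-05) and Cyp51 at -0.50 (SE 0.15, adjusted p = 0.0234, or 0.0582 with the median of genes of low SE set to 0, by the authors' deposited statistics). That list had 10 members called above the control in the clone and 8 at 5 weeks, beside 1239 and 363 of all 10279 genes. Its median difference was -0.03. Of 9 measured genes of cholesterol efflux and of the sterol receptor LXR, 1 was higher (11.1% beside 1.49%) and 1 lower (11.1% beside 4.69%). Mylip, which marks the LDL receptor for degradation, had 1.38 (SE 0.43), and Npc1, which carries cholesterol out of lysosomes, had -0.67 (SE 0.21).

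**Figure D4:**
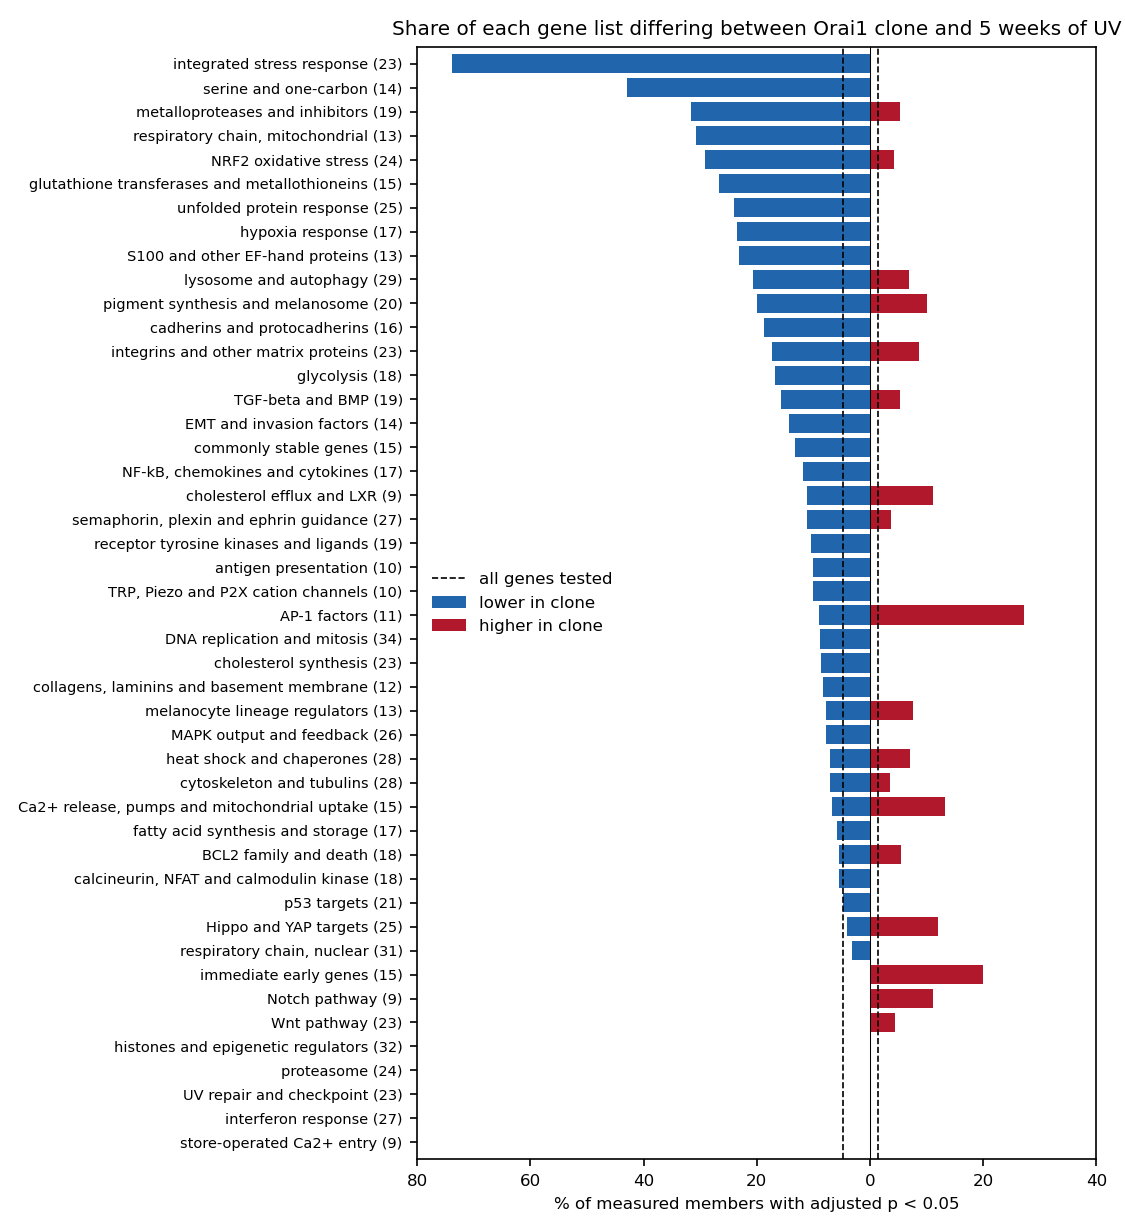
Share of measured members (number in brackets) called lower (blue, to the left) or higher (red, to the right) in the clone than at 5 weeks of UV, for lists with at least 5 measured members. Dashed lines mark all 10279 genes, 4.69% lower and 1.49% higher, and the integrated stress response reaches 73.9% lower while AP-1 factors reach 27.3% higher.

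Early response genes and AP-1 factors were the lists with the largest shares higher in the clone among lists with at least 5 measured members. Of 15 immediate early genes, 3 were higher and none lower (20% beside 1.49%), with a median of 0.47. Ccn1, a secreted matrix protein, had 2.22 (SE 0.10) in the clone, 0.79 (SE 0.13) after 5 weeks and 0.56 (SE 0.22) after 2 weeks in the authors' deposited tables. It rose in the clone and at 5 weeks, and the difference was 1.43 (SE 0.17, adjusted p = 4.96e-15 by the authors' deposited statistics). Srf, a transcription factor of early genes, had 0.82 (SE 0.21), and Ier2 had 0.74 (SE 0.20). Of 11 AP-1 factors 3 were higher (27.3% beside 1.49%) and 1 lower (9.09% beside 4.69%). Fos had 1.96 (SE 0.30) in the clone, -0.43 (SE 0.53) after 5 weeks and 1.46 (SE 0.36) after 2 weeks in the authors' deposited tables, and so rose in the clone and at 2 weeks. The difference of Fos was 2.39 (SE 0.61) and that of Junb 1.33 (SE 0.22). Fosb was higher at an SE above 1 (adjusted p = 0.0492 by the authors' deposited statistics), and Jund was lower at -0.60 (SE 0.17). The AP-1 median was -0.41, opposite in sign to the larger number of calls. Myc fell in both samples, by -0.87 and -1.34 in the authors' deposited tables, with a difference of 0.47 (95% interval 0.00 to 0.94, adjusted p = 0.346).

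Further genes were higher in the clone. Sdc2, a cell surface proteoglycan, had 2.59 (SE 0.14) in the clone, 0.42 (SE 0.24) after 5 weeks and -0.38 (SE 0.21) after 2 weeks in the authors' deposited tables, a difference of 2.17 (SE 0.28, adjusted p = 3.95e-12). Hes1, a Notch target, had 2.83 (SE 0.16), 0.72 (SE 0.31) and -0.03 (SE 0.27) in the same order in the authors' deposited tables. Its difference of 2.11 (SE 0.35) was the 1 call among 9 Notch genes (11.1% higher beside 1.49%). Hmbox1, a homeobox gene, rose in the clone alone and had the largest positive difference at an SE of at most 0.5, 2.41 from the authors' deposited tables (SE 0.37, adjusted p = 7.99e-09). F3, the tissue factor that starts coagulation, had 1.82 (SE 0.40). Of 25 Hippo and YAP genes 3 were higher (12% beside 1.49%) and 1 was lower (4% beside 4.69%), with a median of 0.21. The higher ones were F3, Ccn1 and Yap1. Yap1 had 0.67 (SE 0.18, adjusted p = 0.00741), although neither of its own changes passed (0.22 in the clone and -0.45 at 5 weeks in the authors' deposited tables). Pmepa1, a TGF-beta target that damps its pathway, fell at 5 weeks by -1.57 (SE 0.34) and had 0.29 (SE 0.17) in the clone in the authors' deposited tables, giving 1.86 (SE 0.38, adjusted p = 5.34e-05). The adhesion molecule gene Cadm1 had 1.75 (SE 0.33), and the survival gene Mcl1 had 0.76 (SE 0.19). Trdmt1, a tRNA methyltransferase, rose by 0.53 in the clone and fell by -0.66 at 5 weeks in the authors' deposited tables (1.19, SE 0.24, adjusted p = 4.31e-05).

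The genes called among receptor tyrosine kinases, invasion factors and cytokines were lower in the clone. Axl, a receptor tyrosine kinase of invasive melanoma states, fell in the clone by -2.75 (SE 0.15), at 5 weeks by -1.48 (SE 0.19) and at 2 weeks by -0.37 (SE 0.11) in the authors' deposited tables. It was lowest in the clone, with a difference of -1.27 from the authors' deposited tables (SE 0.24, adjusted p = 9.15e-06). With Ephb2, whose call ended with the median of genes of low SE set to 0, Axl made 2 lower of 19 receptor tyrosine kinases and ligands (10.5% beside 4.69%). Pou3f2 (BRN2), a factor of the same states, had -2.93 (SE 0.68), and Nfib had -1.02 (SE 0.19). These 2 were the calls among 14 genes of epithelial-mesenchymal transition and invasion (14.3% beside 4.69%). Tgfb2, a TGF-beta ligand, had -1.57 (SE 0.36, adjusted p = 0.000751), and Tgfb1 was lower with an SE above 1 (adjusted p = 0.000358), by the authors' deposited statistics. Of 19 TGF-beta and BMP genes 3 were lower (15.8% beside 4.69%) and 1, Pmepa1, was higher (5.26% beside 1.49%). The median of that list went the other way, at 0.30, with 13 of the 19 differences above 0. The chemokine Ccl5 had -3.32 (SE 0.43) in the clone, 0.24 (SE 0.33) after 5 weeks and -0.62 (SE 0.30) after 2 weeks in the authors' deposited tables, a difference of -3.57 (SE 0.54, adjusted p = 8.05e-09). Cxcl10, another chemokine, had -4.89 (SE 0.15), -1.64 (SE 0.69) and -1.87 (SE 0.12) in that order in the authors' deposited tables, and -3.25 (SE 0.71, adjusted p = 0.000239) as the difference. Ccl5 and Cxcl10 were the calls among 17 genes of NF-kB, chemokines and cytokines (11.8% beside 4.69%).

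Matrix proteins and adhesion molecules gave 4 lower (17.4% beside 4.69%) and 2 higher (8.7% beside 1.49%) of 23. Bcan, a proteoglycan of the nervous system, fell in the clone by -4.18 (SE 0.63) and had 0.80 (SE 0.33) at 5 weeks in the authors' deposited tables, with a difference of -4.99 (SE 0.71, adjusted p = 4.39e-10). Sparcl1, a matricellular protein, fell in the clone by -1.61 (SE 0.33) and rose at 5 weeks by 1.42 (SE 0.24) in the authors' deposited tables, a difference of -3.04 (SE 0.41, adjusted p = 2.51e-11). Of 19 metalloproteases and inhibitors 6 were lower (31.6% beside 4.69%) and 1 higher (5.26% beside 1.49%). Their median of -0.49 became 0.09 over members with an SE of at most 0.5. Adam23, a catalytically inactive adhesion protein, had -2.76 (SE 0.53), and Timp3, an inhibitor held in the matrix, had -2.39 (SE 0.61). Adamts1 and Adamts4 went opposite ways, at -1.14 (SE 0.19) and 1.11 (SE 0.28). Adamts1 fell furthest in the clone, by -1.78 beside -0.64 at 5 weeks, and Adamts4 fell at 5 weeks alone, by -1.30, in the authors' deposited tables. Ncam1, a neural adhesion molecule, fell in the clone by -2.74 (SE 0.23) and had -0.21 (SE 0.19) at 5 weeks in the authors' deposited tables, a difference of -2.53 (SE 0.30, adjusted p = 8.8e-15). With Cdh19 and Pcdh1 it made 3 lower of 16 cadherins and related genes (18.8% beside 4.69%). Plxnc1, a semaphorin receptor, had -1.70 (SE 0.21).

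Among genes of the cell cycle and of growth signalling the following were called. Ccnd1, cyclin D1, fell in the clone by -1.83 (SE 0.12), with -0.13 (SE 0.39) at 5 weeks and 0.17 (SE 0.11) at 2 weeks in the authors' deposited tables, a difference of -1.70 (SE 0.41, adjusted p = 0.00137). It was 1 of 3 lower genes among 34 of DNA replication and mitosis (8.82% beside 4.69%), with Ccnb1 at -0.59 (SE 0.17) and Pola1 at -0.72 (SE 0.23). The call of Pola1 ended with the median of genes of low SE set to 0 (adjusted p = 0.0565 by the authors' deposited statistics). Dusp8, a phosphatase of stress kinases, had -1.66 (SE 0.24) and with Ccnd1 made up the 2 calls among 26 genes of MAPK output and feedback (7.69% lower beside 4.69%). Of 21 p53 targets 1 was lower (4.76%, near the 4.69% of all genes), namely Eda2r, a death receptor. Eda2r fell in the clone by -4.34 (SE 0.51) and had 0.30 (SE 0.40) at 5 weeks in the authors' deposited tables. Its difference by the authors' deposited statistics was -4.64 (SE 0.65, adjusted p = 1.34e-10). With an SE above 0.5 Eda2r was not placed in the gene order described below, and the part of its neighbourhood in this difference was not tested. Among 15 commonly stable genes 2 were lower (13.3% beside 4.69%), Pgk1 at -1.26 (SE 0.24) and Eef1a1 at -0.53 (SE 0.16).

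Several lists had no call. UV repair and checkpoint genes had 0 of 23 called and 0 at an unadjusted p under 0.05 by the normal test, with a median of 0.20. Xpc, a sensor of UV damage, rose in the clone by 0.70 and had 0.30 at 5 weeks in the authors' deposited tables, and its difference of 0.40 had an interval of -0.20 to 0.997. Polh, the polymerase that copies past UV lesions, had 0.08 (-0.31 to 0.48). The interferon response had 0 of 27 called and 2 at an unadjusted p under 0.05, with a median of 0.09. The proteasome had 0 of 24 called and 2 at that level, with a median of 0.02. Histones and epigenetic regulators had 0 of 32 called and 5 at that level, with a median of 0.10. A gene without a call is not shown to be alike in both samples: the 95% interval reached a 2-fold difference at 14 of the 23 repair genes, 18 of the 27 interferon genes, 17 of the 32 histone and epigenetic genes and 4 of the 24 proteasome genes.

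Large differences with an SE above 1 are given by direction. There were 5 higher in the clone (Arhgef15, Dusp27, Sema3g, Ccdc80 and Fosb) and 22 lower. By the authors' deposited statistics, of the lower ones Xlr3c (adjusted p = 2.12e-18), Zdhhc15 (3.06e-11), Adssl1 (1.32e-09), Cyba (4.45e-09), Rhox5 (2.04e-08) and Pcdh1 (1.02e-06) had the smallest adjusted p. Each of these 6 fell in the clone against the control. Rhox5, a homeobox gene of the X-linked Rhox cluster, also rose at 5 weeks (adjusted p = 0.000228 in the authors' deposited table). Xlr3b and Xlr3c are close copies, so the split of their reads is uncertain. No gene with an SE above 1 was placed in the gene order described below, so the part of their neighbourhoods was not tested.

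The order of genes along chromosomes was a property that the choice of members did not use. No mouse gene order was used here, so genes with an SE of at most 0.5 were placed in the order of their human namesakes, which holds within blocks of conserved order only. Of 6272 such genes 5429 (86.6%) had a namesake. The lowest of 4877 windows of 25 neighbours ran from Uchl3 to Tmtc4 and had a median difference of -1.23, with 25 of 25 genes below 0. In this window, picked for its low median, 18 genes were called lower (72% beside 6.65% of all matched genes). The clone was the sample that stood apart there, with a median change of -1.18 beside 0.04 at 5 weeks and 0.06 at 2 weeks. Among its genes were Stk24, a kinase (-1.41 in the clone and -0.09 at 5 weeks), Dnajc3 and the pigment gene Dct, by the authors' deposited tables. The highest window ran from Slc12a7 to Prkaa1, with a median of 0.75 and 24 of 25 genes above 0. This window, picked for its high median, had 12 genes called higher (48% beside 2.38% of all matched genes). Its median change was 0.74 in the clone, 0.01 at 5 weeks and -0.12 at 2 weeks. It held Slc45a2 and the chaperonin subunit Cct5 (1.02, SE 0.26), the filopodial motor Myo10 (1.62, SE 0.39) and the Golgi protein Golph3 (1.57, SE 0.22). Over all windows the quartiles were -0.12 and 0.12, and 3.14% had a median of at least 0.5 in size. The window medians of the clone's own changes ran from -1.18 to 0.74 and those of 5 weeks from -0.38 to 0.36.

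Genes with namesakes on the human X chromosome were shifted down as a group. Of 160 such genes 130 had differences below 0, 45 were called lower (28.1%) and none higher, where 6% of the genes elsewhere were lower. Their median was -0.51, with a median change of -0.57 in the clone, 0.00 at 5 weeks and -0.11 at 2 weeks. The medians of the other 22 chromosomes ran from -0.24 to 0.13. Lamp2, Pgk1, Pola1 and the actin crosslinker Flna (-0.58, SE 0.19, adjusted p = 0.0344, or 0.0702 with the median of genes of low SE set to 0, by the authors' deposited statistics) are among these genes. In all, 63 of the 361 matched lower calls lay in this group or in the lowest window. Smaller groups also moved: Atp6v1h, the elongation factor gene Tcea1 (1.54, SE 0.19) and the thioesterase gene Lypla1 (2.14, SE 0.32) are adjacent in this order and were all higher in the clone, and Sdc2 lay beside Mtdh and Laptm4b, which were higher too. Outside the X group and both windows, 298 of 5219 genes were lower (5.71%) and 117 higher (2.24%). Over all 5429 matched genes the shares were 6.65% and 2.38%. Copy number was not measured, and its part in these differences was not tested.

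**Figure D5:**
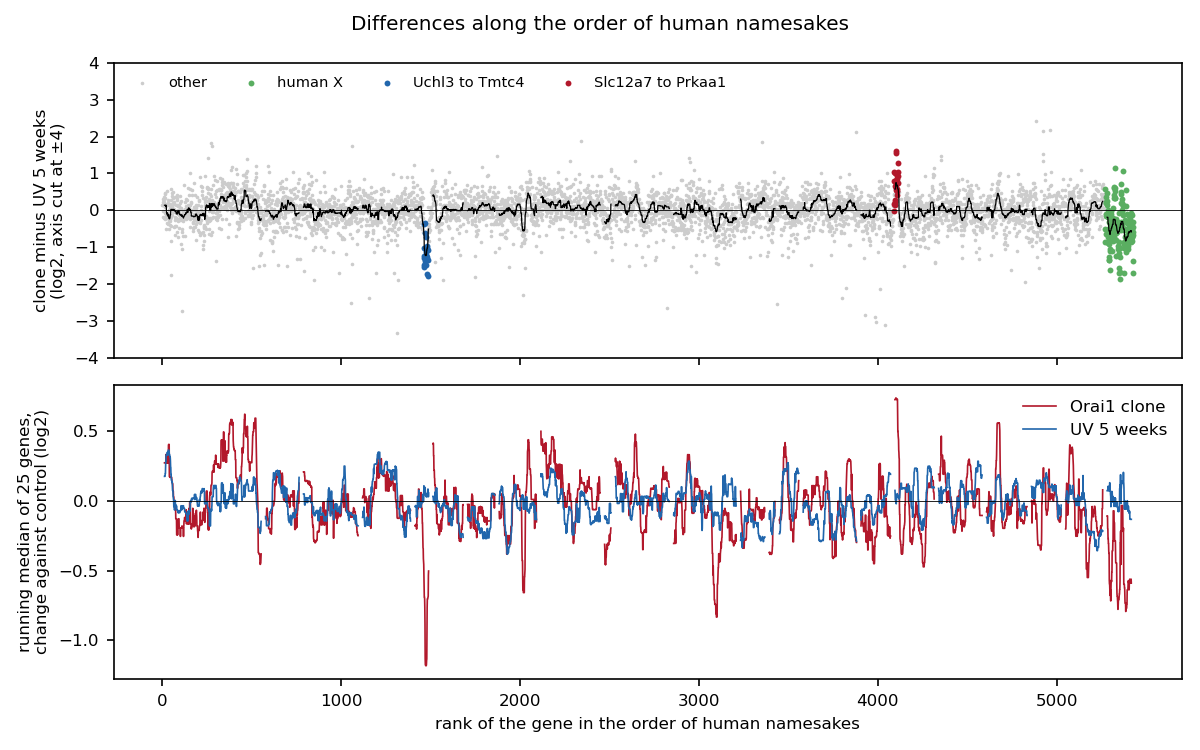
Genes with an SE of at most 0.5 placed by rank in the order of their human namesakes (x axis). The upper panel shows each difference between clone and 5 weeks of UV (log2) with the running median of 25 genes (black line), and the lower panel shows running medians of the changes against control in the clone (red) and at 5 weeks (blue), with the clone reaching -1.18 and 0.74 and 5 weeks staying between -0.38 and 0.36.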

How the data were processed

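The authors deposited tables of comparisons with 1 untreated B16N sample. Per the file headers a row gives 1 symbol with its log2 fold change, its test statistic (a score) and its p-value. The genome build was GRCm38, per the submitters' processing notes. No aligner, counting method, test or number of libraries behind a p-value was named by the labels or headers (not given in the sources used here). Which way the log2 values point is also left unstated there. The deposited log2 values were taken to have the control in the numerator, since all 1357 symbols found in 1 mouse table only were negative and 0 positive, and signs were turned. Deposited p-values match the normal distribution of the score (two-sided), so log2 fold change divided by score gave the SE. SEs of both changes were added in squares, which counts the control's variance in both. Left out were 1 row without a symbol per table and 3 rows without a p-value. Own changes were called by Benjamini-Hochberg adjustment of the deposited p-values over 15041 and 14821 rows.

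The members and the 50 gene lists were chosen with earlier results of these data known. Named were the store-operated Ca2+ entry genes, the 12 largest calls per direction with an SE of at most 0.5, up to 4 calls per list with an SE of at most 1, up to 10 opposite movers per direction, and uncalled members to show a range. Other members, neighbours and calls with an SE above 1 were named after their values were seen. No list was tested as a set. Human gene order came from RefSeq GRCh38.p14 symbols, matched regardless of case. The calling procedure was tested on simulated data with normal noise of the deposited SEs, which cannot check whether those SEs are right. Alternatives were a 2-fold minimum, an adjusted p of 0.01, SE limits of 0.5 and 0.3, shared symbols kept, the median of genes with an SE of at most 0.3 set to 0 (a shift of -0.05), and the control's variance taken out; leaving out shifted neighbourhoods was added after seeing the data. Python 3.11.15, numpy 2.4.6, pandas 2.3.3, scipy 1.17.1 and matplotlib 3.10.9 were used.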

Additional observations from a re-analysis of the deposited data

How the results depend on the processing

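With 1 sample per group no replicate could be left out. The 153 higher and 482 lower genes became 57 and 220 with a 2-fold minimum, 81 and 318 at an adjusted p of 0.01, and 363 and 855 with the control's variance taken out. This last setting takes the control's variance to be an equal part of the smaller squared SE, which was not tested. Elsewhere both counts stayed within 1.5 times: 160 and 460 with an SE of at most 0.5, 155 and 434 with 0.3, 181 and 583 with shared symbols kept, 193 and 405 with the median of genes of low SE set to 0, and 135 and 407 without the X group and both windows, a choice made after seeing the data. Of the 635 calls, 563 were kept with an SE of at most 0.5 and 558 with the median set to 0. SE limits and the control's variance leave a difference as it is, and the shift of -0.05 was smaller than any named one. These settings therefore could not change the direction of the 127 genes named by the rule. Setting the median to 0 ended the calls of 11 of them, among them Ephb2 (adjusted p = 0.0584), Sema4f (0.0836), Smad4 (0.063) and Trpm7 (0.0868), by the authors' deposited statistics. Of 47 list medians 3 moved by more than their typical SE, all with an SE of at most 0.5. With windows of 50 genes the lowest median was -0.71 (Slc25a5 to Fam3a, in the X group) and the highest 0.40 (Pip5k1a to Igsf8). Both lay elsewhere than the extreme windows of 25 genes, and Pip5k1a to Igsf8 had 0 genes called higher and 1 lower. With 15 genes the medians were -1.23 (Kctd12 to Uggt2) and 0.83 (Otulin to Prkaa1), within the windows of 25. Depth is unknown, and 1943 genes had an SE above 1, where a 2-fold difference could not be detected. No paired analysis was possible because each group has 1 sample and only comparisons were deposited.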

Other observations

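Rows in a single comparison hold genes that could not enter the differences. Of the 750 symbols in the clone's comparison alone, 10 were called in the authors' deposited table, all above the control because the sign of such symbols set the orientation of the tables. Among them were the keratin gene Krt78 (adjusted p = 1.73e-09), Bche, which encodes butyrylcholinesterase (9.55e-07), Cdcp1, a membrane protein that SRC phosphorylates (3.77e-05), Samsn1 (0.026) and Trh, the precursor of thyrotropin-releasing hormone (0.0397), by the authors' deposited table. The predicted gene Gm20555 had the smallest adjusted p (3.96e-15) in the authors' deposited table. The other 4 were the pairs Mybphl with Ptgfrn and Pias2 with Syt1, whose values are the same within each pair and cannot be told apart. Of the 527 symbols in the 5 week comparison alone, 1 was called, Tmeff1, a transmembrane protein (adjusted p = 0.0353 in the authors' deposited table). All of these had an SE above 1, so no fold is given.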
